A study of Mus musculus with 4 samples.

Results

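Tetraspanins are a family of small membrane proteins that cross the membrane several times and sort their partners, chiefly integrins, immunoglobulin superfamily proteins, lectins and membrane proteases, into patches of the cell surface known as tetraspanin-enriched microdomains. In leukocytes they are known for their part in adhesion, migration, antigen receptor signalling and the traffic of late endosomes. Some are restricted to blood cells and others occur in most tissues. The transcripts of 9 tetraspanins found in leukocytes (Cd9, Cd37, Cd53, Cd63, Cd81, Cd82, Cd151, Tspan14 and Tspan32) were compared between monocytes and neutrophils of mouse blood. The genes were taken from a list of symbols. They are 9 of the 43346 gene identifiers in the deposited tables, and all 9 were among the 14309 genes with enough reads to be tested.

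Total RNA was sequenced from 2 libraries of monocytes (MON) and 2 libraries of neutrophils (NEU), all from peripheral blood of adult C57BL6 mice that carried no named allele or treatment, as part of a survey of regulation across mouse blood cells. After Ficoll separation, MON were sorted as Gr-1+Mac-1+ cells of the mononuclear layer, although a supplementary table of the study lists a Ly6g-, CD11b+ gate, and NEU were taken from the pellet once red cells had been lysed, with no sort. The libraries held between 20549572 and 26076261 expected counts. Nothing in the labels ties the replicates of a cell type to separate animals, so p-values measure only the spread between these libraries, which may be technical.

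Most markers of the labelled cell types were higher in the cells they mark. The summed level of 12 monocyte markers was 12930 to 13370 CPM (expected counts scaled to a common library total) in MON and 1760 to 1815 CPM in NEU, and that of 12 neutrophil markers was 410.8 to 415.2 CPM in MON and 8118 to 8317 CPM in NEU. Of the monocyte markers 10 were called higher in MON, 1 was called higher in NEU (F13a1) and 1 was not called (Ly6c2), and Lyz2 alone held 6933 CPM of the sum in MON. Of the neutrophil markers 1 was called higher in MON (Retnlg), 10 were called higher in NEU and 1 was not called (G0s2), and Ly6g and Il1f9 were at 0 in both MON libraries. These markers were named after their values were seen. Markers of other cells also differed between the groups. All 10 B cell markers were lower in MON, where they summed to 433.7 to 537.2 CPM, against 3231 to 3347 CPM in NEU, and all 10 natural killer cell markers were higher in MON, with 2740 to 2757 CPM in MON and 33.14 to 33.42 CPM in NEU. The supplementary methods of the study describe male mice, whereas Xist, the RNA that coats the inactive X chromosome of female cells, had 0 and 0 expected counts in MON and 5088 and 4878 in NEU. None of the 9 tetraspanin genes lies on the X chromosome, but this does not set their values apart from the sex of the mice. Because Xist separated all MON from all NEU libraries, sex and cell type cannot be told apart in any comparison given here.

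The 9 tetraspanins did not move as a group. Cd9, Cd53 and Cd82 were higher in MON, Cd37, Cd81 and Tspan32 were higher in NEU, and Cd63, Cd151 and Tspan14 did not pass the test. Thus 6 of 9 were called at an adjusted p under 0.05 by edgeR's quasi-likelihood test, where 42.6% of all tested genes were called, 20.8% as higher in MON and 21.8% as higher in NEU. The median log2 fold change, MON over NEU, was 0.35 over the 9 genes and -0.06 over all tested genes. In 8 of 9 genes the CPM of the MON and NEU libraries did not overlap, a pattern that 75.1% of all tested genes showed, and the 8 comprised 4 with MON above, where 35.2% of all tested genes stood, and 4 with NEU above, where 39.9% stood. Against a fold change of 2 rather than 0, only Cd9 and Cd37 were called, where 13.9% of all tested genes were. Leaving out NEU replicate 1 or 2 left 3 of 9 called, where 23.9% and 24.9% of all genes were, while 7 were called without MON replicate 1 (58.1% of all genes) and 6 without MON replicate 2 (58.6%). With limma on log2(TPM + 1) 4 were called, where 43.5% of 9277 genes were, and with an offset for effective length 5 were called, where 36.1% of all tested genes were. Markers of natural killer cells and of basophils were higher in MON, as Cd9, Cd53 and Cd82 were. Of the basophil markers, which summed to 161.4 to 161.9 CPM in MON and 7.37 to 8.23 CPM in NEU, 6 of 6 tested were called higher in MON and Mcpt8 was at 0 in both NEU libraries. The part of these cells in the tetraspanin values was not tested. The RNA came from whole cell populations, so fewer cells of a type and less RNA per cell cannot be told apart in any of these values.

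**Figure D1:**
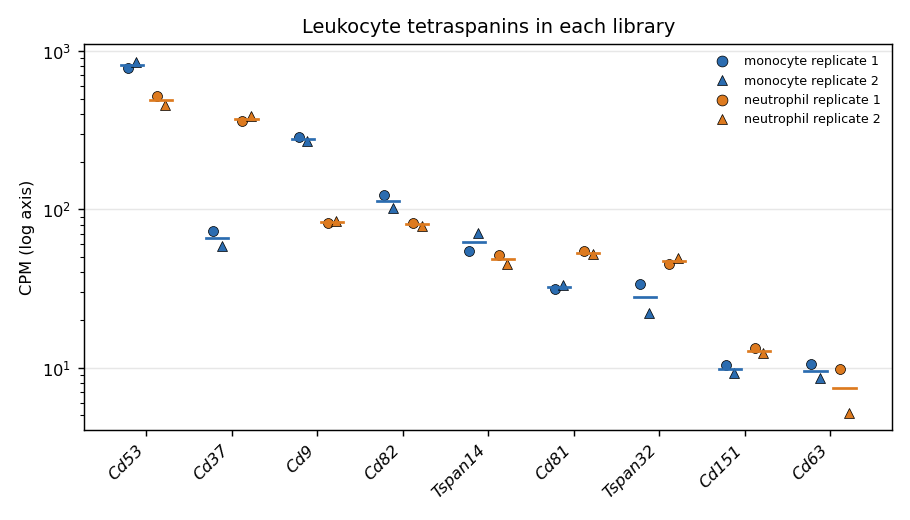
CPM (log axis) of the 9 tetraspanins in each MON library (blue, left) and each NEU library (orange, right), with circles for replicate 1, triangles for replicate 2 and a bar at the mean of the 2 libraries. Cd53 was the highest in both cell types, Cd37 and Cd9 stood on opposite sides, and only Cd63 overlapped between MON and NEU.

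Cd9 had the largest difference toward MON. The protein is abundant on platelets and on many other cells, associates with integrins and their immunoglobulin superfamily partners, and on the mouse egg is needed for fusion with sperm. The gene (ENSMUSG00000030342.8) lies on the minus strand of chromosome 6, at 125460266 to 125494791 of mm10. It had 284.2 and 271.8 CPM in MON, against 81.54 and 84.53 CPM in NEU. The replicates of each cell type lay close together and the groups were far apart. The mean was 278 ± 8.78 CPM in MON and 83.0 ± 2.12 CPM in NEU (SD, n = 2 each), a log2 fold change of 1.74 ± 0.08 (SE, edgeR adjusted p = 8.93e-05), or 3.35-fold higher in MON. Under 15 other settings the log2 fold change ran from 1.70 to 1.78 and every one of them called it. Platelets carry the protein, and 10 platelet markers summed to 49.40 to 49.66 CPM in MON and 93.0 to 105.9 CPM in NEU. Of the 10, 0 were called higher in MON and 5 higher in NEU, where 20.8% and 21.8% of all tested genes were. Gp9 was at 0 in both MON libraries. Itga2b, named after its values were seen, was not called, with 31.22 and 30.93 CPM in MON and 23.94 and 29.0 CPM in NEU. The part of platelets in the values of Cd9 was not tested. An antisense gene within Cd9, Gm28809, had 7 and 8 expected counts in MON and 30 and 40 in NEU, against 1737 to 7412 for Cd9 itself in the 4 libraries.

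Cd53, a leukocyte tetraspanin that in the mouse is known to stabilise the homing receptor L-selectin, was the most abundant of the 9 in every library. It lies on the minus strand of chromosome 3 (ENSMUSG00000040747.9, 106759921 to 106790149). Its level was 780.6 and 857.5 CPM in MON, against 522.8 and 457.3 CPM in NEU. Both MON libraries were above both NEU libraries. The means were 819 ± 54.4 CPM in MON and 490.1 ± 46.3 CPM in NEU (SD, n = 2 each), which gave a log2 fold change of 0.74 ± 0.10 (SE, edgeR adjusted p = 0.00268) and a level 1.67-fold higher in MON. The call was lost only in the test against a 2-fold change. In TPM, a transcript level that corrects for length and so allows genes to be compared, Cd53 ranked 130 and 116 among 21474 protein-coding genes in MON and 137 and 175 in NEU.

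Cd82, known as a suppressor of metastasis in tumour cells, was also called higher in MON, with the smallest called difference of the 9. The gene (ENSMUSG00000027215.9) lies on the minus strand of chromosome 2, at 93419111 to 93463140. It had 123.4 and 102.3 CPM in MON and 82.46 and 78.74 CPM in NEU. The MON libraries were above the NEU libraries, but differed more from each other than the NEU libraries did. The means were 113 ± 14.9 CPM in MON and 80.6 ± 2.63 CPM in NEU (SD, n = 2 each), a log2 fold change of 0.48 ± 0.12 (SE, edgeR adjusted p = 0.0229). Without NEU replicate 1 the log2 fold change was 0.51 and without NEU replicate 2 it was 0.46. The call was lost in both, although the size stayed close to 0.48. Without a NEU library the spread was taken from the MON pair alone. That pair varied more, with edgeR's biological coefficient of variation at 46.2%, against 14.7% in the NEU pair. The same holds wherever a call below was lost without a NEU library.

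Cd37 had the largest difference of the 9 and stood on the side of NEU. The protein is restricted to leukocytes and most abundant on mature B cells, and on myeloid cells it binds dectin-1, the beta-glucan receptor encoded by Clec7a. The gene (ENSMUSG00000030798.9) lies on the minus strand of chromosome 7, at 45233632 to 45239115. It had 72.90 and 58.34 CPM in MON, against 360.3 and 388.2 CPM in NEU. Both NEU libraries were far above both MON libraries. The means were 65.6 ± 10.3 CPM in MON and 374 ± 19.7 CPM in NEU (SD, n = 2 each), with a log2 fold change of -2.51 ± 0.13 (SE, edgeR adjusted p = 0.000121), so that Cd37 was 5.71-fold higher in NEU. All 15 other settings called it, with log2 fold changes between -2.68 and -2.09. In TPM rank among protein-coding genes, Cd37 stood at 1412 and 1627 in MON and at 226 and 206 in NEU.

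Markers of B cells moved together with Cd37. Their summed CPM was 6.78-fold higher in NEU, beside 5.71-fold for Cd37. The CPM of Cd37 divided by that sum was 0.168 and 0.109 in MON and 0.108 and 0.120 in NEU. The groups overlapped in this ratio, which was chosen after the values were seen. It must lie close together in MON and NEU for any gene whose fold change is near that of the sum. It therefore cannot show the part of B cells in the values of Cd37. None of the 10 B cell markers was at 0 in any library. Over the 4 libraries, the gene whose log2 CPM was closest to that of Cd37 among 11902 other protein-coding genes was the B cell receptor chain Cd79b, at a Euclidean distance of 0.263, with 61.74 and 57.64 CPM in MON and 379.9 and 368.8 CPM in NEU. Next came Apobec3, a cytidine deaminase that restricts retroviruses, at 0.473, and the Ras effector Rassf2 at 0.480. Over 4 libraries this distance reflects little beyond the level of a gene and its difference between the groups. It cannot show that genes share a cell. The part of B cells in the values of Cd37, and in those of Cd81 and Tspan32 given next, was not tested.

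**Figure D2:**
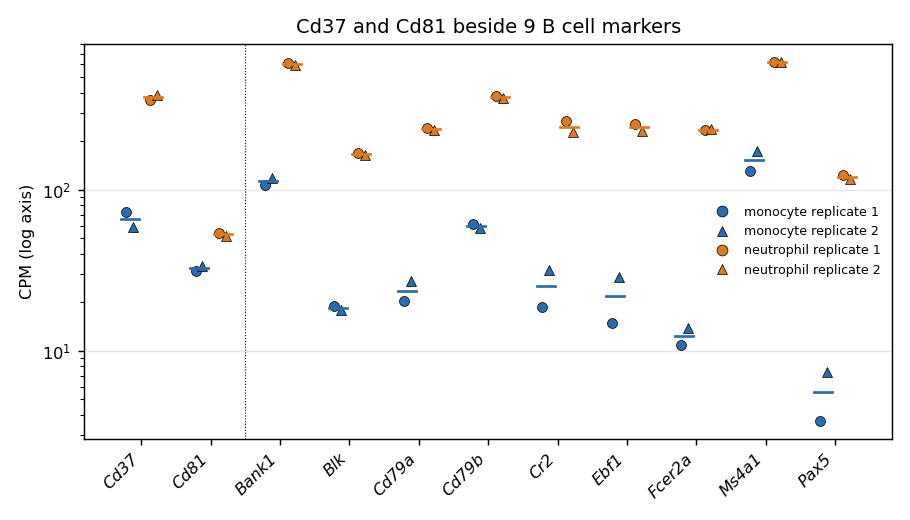
CPM (log axis) of Cd37 and Cd81 and, right of the dotted line, of 9 of the 10 B cell markers in each MON library (blue) and each NEU library (orange), with bars at the means. These markers and both tetraspanins were higher in both NEU libraries than in both MON libraries, and the gap was narrowest for Cd81.

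Cd81, a partner of the complement receptor Cr2 on B cells and in humans an entry receptor of hepatitis C virus, was higher in NEU by less. It lies on the plus strand of chromosome 7 (ENSMUSG00000037706.12, 143052739 to 143067934). It had 31.52 and 33.44 CPM in MON, against 54.26 and 51.87 CPM in NEU. The replicates of each cell type lay close together and the groups did not overlap. The means were 32.5 ± 1.36 CPM in MON and 53.1 ± 1.69 CPM in NEU (SD, n = 2 each), a log2 fold change of -0.71 ± 0.12 (SE, edgeR adjusted p = 0.00661) and a level 1.64-fold higher in NEU. The ratio of Cd81 to the summed B cell marker CPM was 0.0727 and 0.0623 in MON and 0.0162 and 0.0161 in NEU. That of Tspan32 was 0.0778 and 0.0413 in MON and 0.0134 and 0.0153 in NEU. Neither overlapped between the groups. The sum was 6.78-fold higher in NEU, so the ratio must separate for any gene that differs much less. It therefore cannot show the part of B cells in these values. The call was lost without NEU replicate 1 (log2 fold change -0.68, adjusted p = 0.0782), without NEU replicate 2 (-0.74, adjusted p = 0.0606) and when limma was run on log2(TPM + 1), which gave -0.45 (adjusted p = 0.0871).

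Tspan32, expressed chiefly in blood cells and known in mice as a regulator of platelet integrin signalling, neighbours Cd81 on the plus strand of chromosome 7 (ENSMUSG00000000244.12, 143005046 to 143019644). It had 33.75 and 22.20 CPM in MON, against 44.88 and 49.39 CPM in NEU. Both NEU libraries were above both MON libraries, while the MON libraries lay apart from each other, with a ratio of replicate 1 to replicate 2 of 1.52 (95% counting interval 1.37 to 1.69). The means were 27.97 ± 8.16 CPM in MON and 47.1 ± 3.19 CPM in NEU (SD, n = 2 each), and the log2 fold change was -0.76 ± 0.22 (SE, edgeR adjusted p = 0.0393). Its size depended on the MON library used, with -1.08 without MON replicate 1 and -0.49 without MON replicate 2. The call was lost without NEU replicate 1 and without NEU replicate 2. It was also lost with limma on log2(TPM + 1) (adjusted p = 0.104) and in edgeR with an offset for effective length (adjusted p = 0.0711). The platelet markers given with Cd9 summed to 2.01-fold more in NEU, beside 1.69-fold for Tspan32. The part of platelets in the values of Tspan32 was not tested.

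Of 5 genes listed around Tspan32 and Cd81, 2 had enough reads to be tested, and 1 of them was called, in the direction opposite to these tetraspanins. Cdkn1c, an imprinted inhibitor of cyclin-dependent kinases, had 58 and 125 expected counts in MON and 7 and 11 in NEU, a log2 fold change of 3.04 ± 0.79 (SE, edgeR adjusted p = 0.0276), and its call was lost without NEU replicate 1 (adjusted p = 0.195) or NEU replicate 2 (adjusted p = 0.122). Tssc4 had 130 and 38 expected counts in MON and 92 and 91 in NEU and was not called, with a log2 fold change of -0.43 and a 95% interval of -2.07 to 1.22 (edgeR adjusted p = 0.647). Its log2 fold change was -1.54 without MON replicate 1, where it was called, and 0.19 without MON replicate 2.

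Tspan14 did not pass the test. It belongs to the TspanC8 group, whose members carry the membrane protease Adam10 to the cell surface. The gene (ENSMUSG00000037824.5) lies on the minus strand of chromosome 14, at 40906445 to 40966807, and had 54.38 and 70.40 CPM in MON, against 51.21 and 45.35 CPM in NEU. The MON libraries were above the NEU libraries, but the lower MON library was close to the higher NEU library. The means were 62.4 ± 11.3 CPM in MON and 48.3 ± 4.14 CPM in NEU (SD, n = 2 each), and the log2 fold change was 0.37 with a 95% interval of -0.04 to 0.78 (edgeR adjusted p = 0.127). Without MON replicate 1 it was 0.55 and was called (adjusted p = 0.00637), and without MON replicate 2 it was 0.17 (adjusted p = 0.291).

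Cd63, a protein of late endosomes and of granule membranes that moves to the surface when granules are released, was low in both cell types. The gene (ENSMUSG00000025351.9) lies on the plus strand of chromosome 10, at 128900989 to 128912822. It had 10.53 and 8.56 CPM in MON, against 9.77 and 5.21 CPM in NEU, and the groups overlapped. The NEU libraries differed by a ratio of 1.87 (95% counting interval 1.48 to 2.39), the widest replicate ratio among the 9 genes. The log2 fold change was 0.35 with a 95% interval of -0.59 to 1.30 (edgeR adjusted p = 0.5), and it turned to -0.02 (adjusted p = 0.98) without NEU replicate 2.

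Cd151, a partner of the laminin-binding integrins, had the lowest TPM of the 9 in each library but NEU replicate 2, where Cd63 was lower. It lies on the plus strand of chromosome 7 (ENSMUSG00000025510.9, 141467392 to 141471473) and had 10.32 and 9.28 CPM in MON, against 13.27 and 12.31 CPM in NEU. Both NEU libraries were slightly above both MON libraries. The means were 9.80 ± 0.73 CPM in MON and 12.8 ± 0.67 CPM in NEU (SD, n = 2 each), and the log2 fold change was -0.39 with a 95% interval of -0.95 to 0.18 (edgeR adjusted p = 0.227). These levels rested on 237 to 287 expected counts per library.

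**Figure D3:**
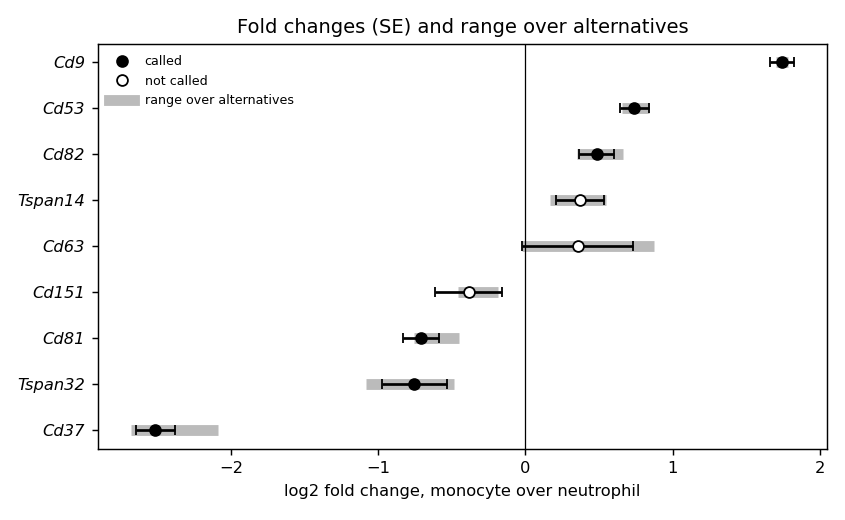
Log2 fold changes, MON over NEU, of the 9 tetraspanins (points, filled where called) with their SE (bars) and the range over the alternative settings (grey). Cd9 and Cd37 lay farthest from 0 on opposite sides, and the grey range crossed 0 only for Cd63.

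The makeup of tetraspanin RNA differed between MON and NEU, chiefly in Cd37, Cd9 and Cd53. Over 31 tetraspanin genes, TPM summed to 263.6 and 242.6 in MON and to 217.5 and 198.0 in NEU. Annotated genes other than mitochondrial and short structural RNA held 11.17% and 10.15% of all TPM in MON and 9.23% and 8.76% in NEU. The sums depend on this part, so they do not compare tetraspanin levels between MON and NEU. The 9 leukocyte tetraspanins held 91.7% and 90.4% of the family sum in MON and 86.6% and 86.5% in NEU. Cd53 held the largest share in every library, 44.0% and 47.3% in MON and 34.1% and 30.9% in NEU. Second place changed hands. Cd9 held 24.2% and 22.5% in MON, against 7.94% and 8.53% in NEU, and Cd37 held 5.02% and 4.32% in MON, against 24.3% and 27.3% in NEU. The TPM of Cd37 was 0.114 and 0.0913 of that of Cd53 in MON and 0.711 and 0.884 in NEU, so that in NEU Cd37 came close to Cd53. With 2 libraries against 2, an exact two-sided permutation test cannot go below 0.333, so these shares were not tested.

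**Figure D4:**
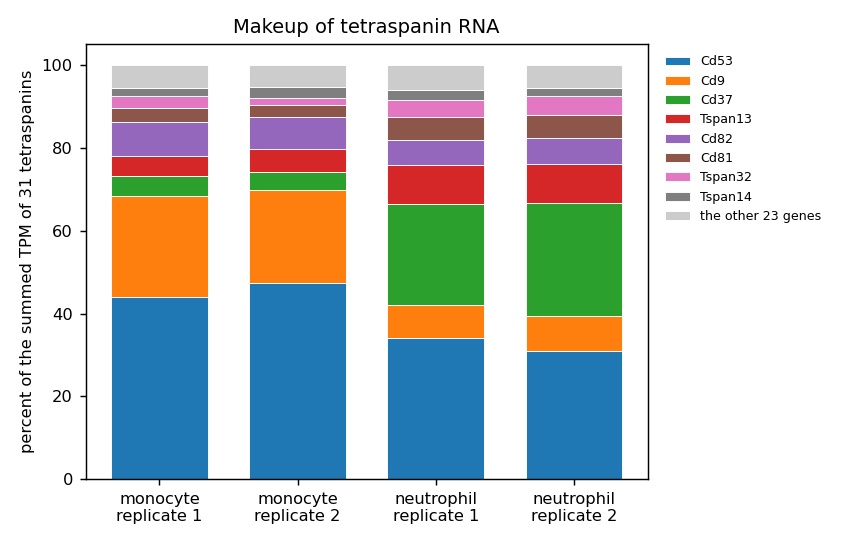
Share of the summed TPM of 31 tetraspanin genes (percent, stacked bars) in each MON library (left) and each NEU library (right), with the 8 largest genes in colour and the other 23 in grey. The Cd9 band is widest after Cd53 in MON, and the Cd37 band is widest after Cd53 in NEU.

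Ordered by mean TPM, the 9 genes ran in MON from Cd53 (115), Cd9 (59.1), Cd82 (20.3), Cd37 (11.9) and Cd81 (8.12) to Tspan14 (5.98), Tspan32 (5.48), Cd63 (2.93) and Cd151 (1.35). Only Tspan14 and Tspan32 overlapped among neighbours in that order. In NEU the mean TPM ran from Cd53 (67.7), Cd37 (53.4), Cd9 (17.1), Cd82 (12.8) and Cd81 (11.4) to Tspan32 (8.98), Tspan14 (4.56), Cd63 (2.24) and Cd151 (1.68). Here only Cd63 and Cd151 overlapped. TPM also depends on which transcripts the authors' program assigned. The transcript length it used for Cd37 was 1458 and 1340 bases in MON and 1695 and 1680 bases in NEU, and it was also shorter in both MON libraries for Cd81, Cd82 and Cd151. With the effective length as an offset, the log2 fold change of Cd37 was -2.23, against -2.51 without.

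The rest of the family, 22 genes, was mostly low, and 12 of them could be tested. Of these, 2 were higher in MON, 4 were higher in NEU and 6 were not called, with a median log2 fold change of 0.22, which stays the same with genes at 0 in MON set at their bound. Among all tested genes 42.6% were called, and the median was -0.06. Tspan31 had 26.12 and 25.80 CPM in MON, against 8.74 and 9.64 CPM in NEU, a log2 fold change of 1.50 ± 0.18 (SE, edgeR adjusted p = 0.00181). Tspan17, like Tspan14 a TspanC8 member, had 4.37 and 6.38 CPM in MON and 0.693 and 1.02 CPM in NEU (log2 fold change 2.64 ± 0.57, edgeR adjusted p = 0.0152). Both MON libraries were above both NEU libraries for each gene. The call of Tspan17 was lost without NEU replicate 1 (adjusted p = 0.107) or NEU replicate 2 (adjusted p = 0.0631).

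On the other side, Tspan2, known from myelin-forming cells, had 12.08 and 6.66 CPM in MON, against 59.07 and 54.50 CPM in NEU (log2 fold change -2.60 ± 0.29, edgeR adjusted p = 0.00141). Tspan13 had 91.19 and 115 CPM in MON, against 153.4 and 149.2 CPM in NEU (log2 fold change -0.55 ± 0.13, edgeR adjusted p = 0.0207), and it was the most abundant tetraspanin outside the 9, with 4.64% and 5.66% of the family's TPM in MON and 9.48% and 9.50% in NEU. A pair of epithelial tetraspanins had reads in NEU alone. Tspan1 had 0 and 0 expected counts in MON and 67 and 49 in NEU. Upk1b, a plaque protein of bladder epithelium, had 0 and 0 in MON and 68 and 59 in NEU. Against a floor of 3 counts over the MON libraries, they were at least 47.3-fold and 51.8-fold higher in NEU. That floor allows for counting error alone, so these are no firm lower bounds. Low genes could vary more between the MON libraries, as Tssc4 did with 130 and 38 expected counts. Reads fell on 14957 and 15111 genes in MON and on 18017 and 18041 in NEU. Tspan5, a further TspanC8 member, was not called, with 21.71 and 21.46 CPM in MON and 17.84 and 17.23 CPM in NEU (edgeR adjusted p = 0.190). The calls of Tspan13 (adjusted p = 0.0852), Tspan1 (0.0784) and Upk1b (0.0572) were lost without NEU replicate 1, and that of Tspan13 also without NEU replicate 2 (adjusted p = 0.0649). Prph2, Tspan10, Tspan11 and Tspan12 were at 0 in all 4 libraries.

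Proteins known to bind or travel with tetraspanins were split as well. Of 18 listed partners 17 were tested, and 6 were higher in MON, 6 were higher in NEU and 5 were not called, with a median log2 fold change of 0.07. Among all tested genes 20.8% were called higher in MON and 21.8% higher in NEU, and the median was -0.06. Among the integrin chains, Itgb1 had 1222 and 1163 CPM in MON, against 104.6 and 95.77 CPM in NEU (log2 fold change 3.57 ± 0.09, edgeR adjusted p = 2.17e-05). Itga4, its partner chain in the receptor for VCAM-1, had a log2 fold change of 0.88 ± 0.07, and Itga6, a laminin receptor chain, one of -1.07 ± 0.12, lower in MON. The integrin chains therefore differed in direction among themselves.

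The scavenger receptor Cd36 had the largest difference of the partners, with 1120 and 1072 CPM in MON, against 21.26 and 18.10 CPM in NEU (log2 fold change 5.80 ± 0.12, edgeR adjusted p = 2.17e-05). The proteases fell on the side of MON. Adam10, which the TspanC8 members carry, had 111.7 and 96.56 CPM in MON and 70.77 and 72.26 CPM in NEU (log2 fold change 0.54 ± 0.11, edgeR adjusted p = 0.0125), and Adam17 had a log2 fold change of 0.75 ± 0.09. Pdcd6ip (ALIX), an adaptor of exosome formation, had one of 0.51 ± 0.10. The calls of Adam10 and Pdcd6ip were lost without NEU replicate 1 (adjusted p = 0.0934 for both) and without NEU replicate 2 (adjusted p = 0.067 for Adam10 and 0.075 for Pdcd6ip). That of Adam10, and not that of Pdcd6ip, was also lost with the effective length offset (adjusted p = 0.0541) and with limma on log2(TPM + 1) (adjusted p = 0.112) or log2(TPM + 0.1) (adjusted p = 0.115).

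Among the partners higher in NEU was Clec7a, the partner of Cd37, with 306.5 and 326.9 CPM in MON, against 989.8 and 976.1 CPM in NEU (log2 fold change -1.64 ± 0.08, edgeR adjusted p = 9.29e-05). Cr2, a partner of Cd81, had 18.79 and 31.60 CPM in MON, against 266.1 and 227.9 CPM in NEU (log2 fold change -3.29 ± 0.26, edgeR adjusted p = 0.000447). It also stands among the 10 B cell markers, so it is no separate evidence on Cd81. The interferon-induced protein Ifitm1 had a log2 fold change of -2.13 ± 0.12. The heparan sulfate proteoglycan Sdc4, a partner of the exosome adaptor syntenin, had a log2 fold change of -1.46 ± 0.24.

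The start sites of Cd37, Cd9 and Cd53 are shown because Cd37 and Cd9 differed most in opposite directions and Cd53 was the most abundant. The windows run from 250 bases before to 50 after the RefSeq start (GRCm38.p6), 5′ to 3′ on the minus strand that carries all 3 genes. Capitals mark the purine-rich box GAGGAA, known as a core of sites of the myeloid and B cell factor PU.1, on either strand (TTCCTC where it is on the other).
Cd37 (chr7:45238790-45239089): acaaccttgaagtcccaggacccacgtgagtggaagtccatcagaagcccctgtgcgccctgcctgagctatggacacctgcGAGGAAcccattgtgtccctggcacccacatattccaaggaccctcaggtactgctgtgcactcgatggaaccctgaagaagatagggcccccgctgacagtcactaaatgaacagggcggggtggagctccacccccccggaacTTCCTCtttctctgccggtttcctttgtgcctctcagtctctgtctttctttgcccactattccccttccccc
Cd53 (chr3:106790100-106790399): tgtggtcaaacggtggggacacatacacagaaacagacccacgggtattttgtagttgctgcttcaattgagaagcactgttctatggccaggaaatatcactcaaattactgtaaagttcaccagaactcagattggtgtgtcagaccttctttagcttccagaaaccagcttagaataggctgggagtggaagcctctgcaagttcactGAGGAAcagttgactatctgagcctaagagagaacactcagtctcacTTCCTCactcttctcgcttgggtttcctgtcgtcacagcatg
Cd9 (chr6:125494711-125495010): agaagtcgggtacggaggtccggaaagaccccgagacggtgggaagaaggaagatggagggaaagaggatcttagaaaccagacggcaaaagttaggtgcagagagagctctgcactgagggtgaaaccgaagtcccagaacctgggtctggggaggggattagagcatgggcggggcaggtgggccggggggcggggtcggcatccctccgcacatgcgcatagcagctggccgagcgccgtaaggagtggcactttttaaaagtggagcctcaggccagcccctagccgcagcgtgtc
The Cd37 window held the box from -168 to -163 and, on the other strand, from -23 to -18, and the Cd53 window held it from -39 to -34 and, on the other strand, from 9 to 14. The Cd9 window had none and held 2 copies of the GC box GGGCGG, from -81 to -76 and from -60 to -55, the Cd37 window held 1 copy of it from -53 to -48 and the Cd53 window none, and none of the boxes overlapped in these windows. The windows held 18 CpG dinucleotides in Cd9, 8 in Cd37 and 4 in Cd53, and the median of all windows was 7. Of all 32851 RefSeq windows of this length searched on both strands, 28.3% held GAGGAA and 35.7% held GGGCGG. Among the 14 windows of the 9 genes, 7 windows of 6 genes held GAGGAA, in genes higher in MON, higher in NEU and not called alike. A match of letters is a description of the window and not of binding.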

How the data were processed

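RNA was prepared with TRIzol, depleted of ribosomal RNA and made into stranded libraries by PCR without molecular identifiers, so counting intervals cover counting error only. The authors aligned reads to mm10 with STAR and deposited RSEM tables per library, with expected counts (estimated reads per gene, not normalized) and TPM. The deposited tables also hold posterior standard deviations of the counts, which were at most 0.393% of the count for the 9 genes, and transcript lengths. Whether reads were counted by strand is not stated in the sources used here. Symbols and coordinates came from GENCODE M21 (98.0% of 43346 gene identifiers matched). CPM is the expected count scaled to a common library total. Expected counts were rounded, filtered with filterByExpr and scaled by TMM (factors 0.9936 to 1.006). The quasi-likelihood F test of edgeR 4.0.16 in R 4.3.3 compared 2 MON with 2 NEU libraries, over 14309 genes, with Benjamini-Hochberg adjustment and a threshold of 0.05. The SE of a log2 fold change is its size divided by the square root of its F. The scripts were tested on simulated counts.

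The genes named were the 9 members, other tetraspanins with a mean TPM of at least 1 in a cell type or called, called partners (apart from 1 not reported here), tested neighbours of Tspan32 and Cd81, and the 3 protein-coding genes nearest to Cd37 (log2 CPM, prior count 2). Tetraspanins at 0 in all libraries, and the ratios to B cell markers, were added after their values were seen. Members and lists were chosen with earlier results of these data known. Lists of other blood cells were also counted, given here as genes called higher in MON and higher in NEU: T cells 1 and 6 of 10, basophils 6 and 0 of 6, eosinophils 1 and 0 of 3, red cells 1 and 4 of 7 and dendritic cells 1 and 0 of 4. Alternatives were DESeq2 1.42.0 size factors, upper-quartile factors, library totals alone, no filter, at least 10 CPM in 2 libraries, limma 3.58.1 on log2(TPM + 1) and log2(TPM + 0.1), a length offset, the Wald test of DESeq2, a test against a 2-fold change, removal of mitochondrial genes and of the 10 most abundant ones, rescaled TPM and leaving out each library.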

Additional observations from a re-analysis of the deposited data

How the results depend on the processing

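No paired analysis was possible because the labels give MON and NEU no shared replicate numbers, and the numbers used here follow deposit order only. Of 134 fold changes of the 9 tetraspanins under the alternatives, 117 kept their direction and their side of the threshold, 15 lost the call, 1 gained it (Tspan14) and 1 turned sign: Cd63, at -0.0246 without NEU replicate 2 (0.871 at most, without NEU replicate 1). Of the 9, 6 were called in the main test, 2 in the test against a 2-fold change, 4 with limma at either pseudocount, 5 with the length offset and between 3 and 7 when a library was left out (3 without either NEU library, 7 without MON replicate 1). Only Cd9 and Cd37 were called under all 15 alternatives. The count over all genes, 6092, became 4033 with limma on log2(TPM + 1), 3877 on log2(TPM + 0.1), 1989 in the test against a 2-fold change and 3418 to 8388 without a library. For the other tetraspanins, 6 of 12 tested became 3 of 4 tested with the filter of 10 CPM in 2 libraries, 3 of 4 with limma at either pseudocount, where the other 8 left the test, and 2 to 7 of 12 without a library (2 without NEU replicate 1). For the partners, 12 became 6 in the test against a 2-fold change and 10 to 14 without a library. Of 347 fold changes of the 24 other genes that the naming rule took, 321 kept direction and call, 24 lost the call, 1 gained it and 1 turned sign, and the last 2 were those of Tssc4, at -1.54 without MON replicate 1 and 0.194 without MON replicate 2. Rescaling TPM leaves shares of the family as they are by construction. Leaving out a library leaves its group with 1, which is then assumed to vary like the other group. The spread between replicates, measured as edgeR's biological coefficient of variation of each pair, was 46.2% in MON and 14.7% in NEU.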
